A study of Saccharomyces cerevisiae with 2 samples.

Results

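Amino acid permeases are membrane proteins that carry amino acids into the yeast cell, and histone H3 exchange was examined at 10 of their genes out of 5943 genes whose reading frame could be placed on the arrays. The genes were PUT4, GAP1, AGP1, GNP1, BAP2, BAP3, TAT1, TAT2, MUP1 and CAN1, selected on their ratios of Flag to Myc signal on these same arrays, where PUT4 and AGP1 had the highest promoters, as well as on their shared function. Those ratios are therefore a description, and no test is given for them. All 104 probes with a midpoint in the frame of a member or within 1000 bp upstream of its start codon were taken, and 89 of them gave a usable value.

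The cells were Saccharomyces cerevisiae of strain MDY513, in which HTZ1, the gene of the histone variant H2A.Z, is deleted, and they carried H3 with a Myc tag made all the time and H3 with a Flag tag made once galactose was given. They were held with the mating pheromone alpha factor (4 µg/mL, 4 hours), which stops cells in G1, filtered into YP medium with 2% galactose and taken at 180 min. The anti-Myc precipitate (Cy5) and the anti-Flag precipitate (Cy3) of the chromatin were amplified linearly and hybridised together to tiling arrays that cover the yeast genome. There was 1 group of 2 replicate arrays, and no strain with HTZ1, other time or swapped dye was analysed here, so every value belongs to arrested cells without H2A.Z in galactose. Separate cultures are not stated for the replicates, so the spread between them may be technical, and the labels do not give how the tagged genes are carried or whether untagged H3 was left.

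Each value is the log2 of the Flag signal over the Myc signal, set so that the median probe of each array is 0. A value above 0 thus means that galactose-induced H3 made up more of the tagged H3 there than at the median probe, not that it was the larger share. A change in more of the cells and a larger change per cell cannot be told apart. Values are given as the mean ± SD of the 2 arrays (n = 2 throughout). A promoter value is the mean of the used probes within 500 bp upstream of the start codon that lie in no frame, and a frame value that of the used probes in the reading frame. Probe positions are midpoints counted from the start codon, negative upstream of it.

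Of 41282 nuclear probes, 34899 were used, 3964 were too close to background in a channel of an array, another 2419 carried an outlier flag and 0 were saturated. The SD between the arrays had a median of 0.16 over all used probes and of 0.19 over the 89 probes of the permease genes, whose largest was 0.99. The 1 probe in the HTZ1 frame was dark in all channels of both arrays. Among the promoter probes of the permease genes 9 of 22 (40.9%) were dim, against 2278 of 8353 (27.3%) in all promoters. BAP2 and CAN1 had no usable promoter probe for that reason, which left 8 promoters and 10 frames. Whether probes of related permease genes also read each other's DNA was not tested, since no probe sequence was used here.

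Yeast turns its permease genes on and off with the nitrogen supply. The SPS sensor at the plasma membrane, made of Ssy1, Ptr3 and Ssy5, detects amino acids outside the cell and releases the transcription factors Stp1 and Stp2, which induce AGP1, GNP1, BAP2, BAP3, TAT1 and other permease genes in rich media. The GATA factors Gln3 and Gat1 activate GAP1, PUT4 and other genes for poor nitrogen sources, and nitrogen catabolite repression holds them back when good sources are at hand. H3 is exchanged outside replication mainly at promoters and in genes that are being transcribed, so in arrested cells the ratio of induced to constitutive H3 reports such exchange.

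The 8 permease promoters that could be measured were high, and the 10 frames covered most of the range seen in the genome. The 8 promoters had a median of 2.95 ± 0.13, with 3.04 on replicate 1 and 2.86 on replicate 2, and ran from 1.51 at GNP1 to 4.54 at PUT4. The median of all 4561 measured promoters was 0.99. Above 1 log2 unit on both arrays lay 8 of 8 permease promoters, where 44.7% of all promoters did. This count describes the choice of the genes and is not read as a finding.

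The 10 frames had a median of 1.02 ± 0.22, with 1.18 on replicate 1 and 0.87 on replicate 2, and ran from -1.25 at CAN1 to 3.73 at PUT4. All 5615 measured frames had a median of -0.06, and the 1037 frames of 1500 to 2100 bp, a span that holds the 10 permease frames, one of -0.28. Above 1 log2 unit on both arrays lay 5 of 10 permease frames (PUT4, GAP1, AGP1, BAP2 and TAT2), where 19.1% of all frames did. TAT2 would leave that count with normexp background correction, where its frame was 0.93, and with loess, where it was 0.81. Below the array median on both arrays lay 1 of 10, CAN1, where 48.9% of all frames did. The promoter exceeded the frame on both arrays in 8 of 8 permease genes, where 77.4% of all genes with both values showed this. That direction turned at the genes with the highest promoters when every used probe within 1000 bp upstream was taken: PUT4 stood at 2.64 ± 0.19 upstream against 3.73 in its frame, and AGP1 at 2.18 ± 0.10 against 2.30, lower on both arrays. With that window, which also takes probes in the frames of other genes, BAP2 and CAN1 gain a value and 8 of 10 genes were higher upstream. The BAP2 value there is 1 probe at -772, 111 bp past the TAT1 stop codon. That of CAN1 is 1 probe at -981, in the frame of NPR2, so neither is a promoter value as defined here. For promoters within 500 bp, the median difference from the frame over the 8 genes was 1.74 ± 0.09. It was 0.91 in all 4411 genes with both values and 1.21 in the 816 of 1500 to 2100 bp.

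**Figure D1:**
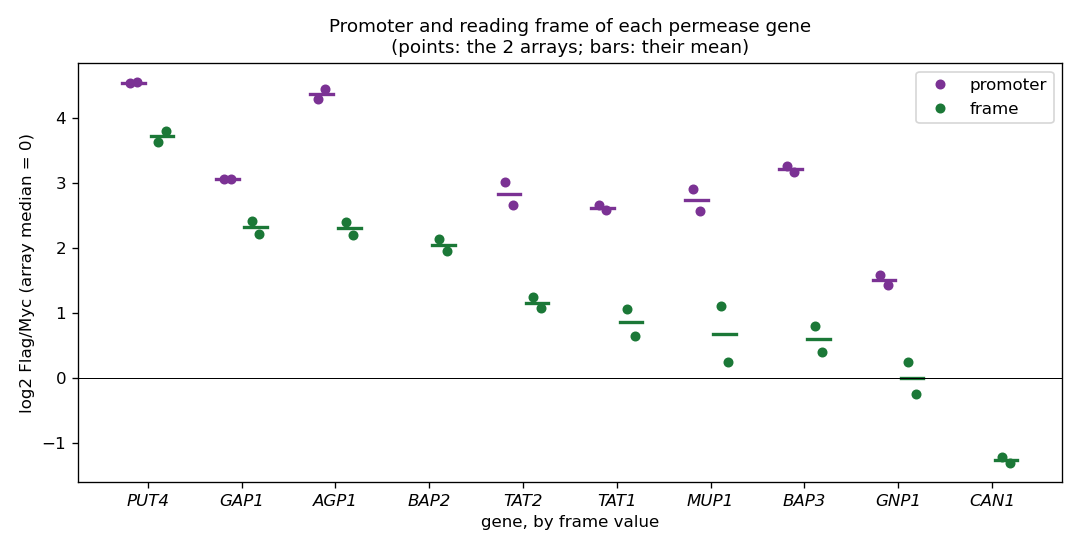
Promoter (purple) and reading frame (green) values of the 10 permease genes, as log2 Flag over Myc with the array median at 0 on the vertical axis. Points are the 2 arrays and bars their mean, the genes are ordered by frame value, and BAP2 and CAN1 have no promoter value. Frames run from 3.73 at PUT4 to -1.25 at CAN1, and each of the 8 promoters lies above its own frame on both arrays.

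The single probes include those averaged above, so their counts also describe the choice of the genes and are not read as a finding. Above 1 log2 unit on both arrays stood 51 of the 89 used probes, where 22.7% of all used probes did. Of the upstream probes 23 of 30 did so, against 34.7% of those upstream of all genes, and of the frame probes 28 of 59, against 15.2%. Below 0 on both arrays stood 2 of 30 upstream probes, against 26.4%, and 13 of 59 frame probes, against 56.7%. Set against the median profile of all genes with frames of 1500 bp or more, in bins along the gene, 52 of 59 frame probes lay above the median of their bin and 45 above its upper quartile. The typical profile peaks just upstream of the start codon and stays below the array median through the middle of the frame.

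**Figure D2:**
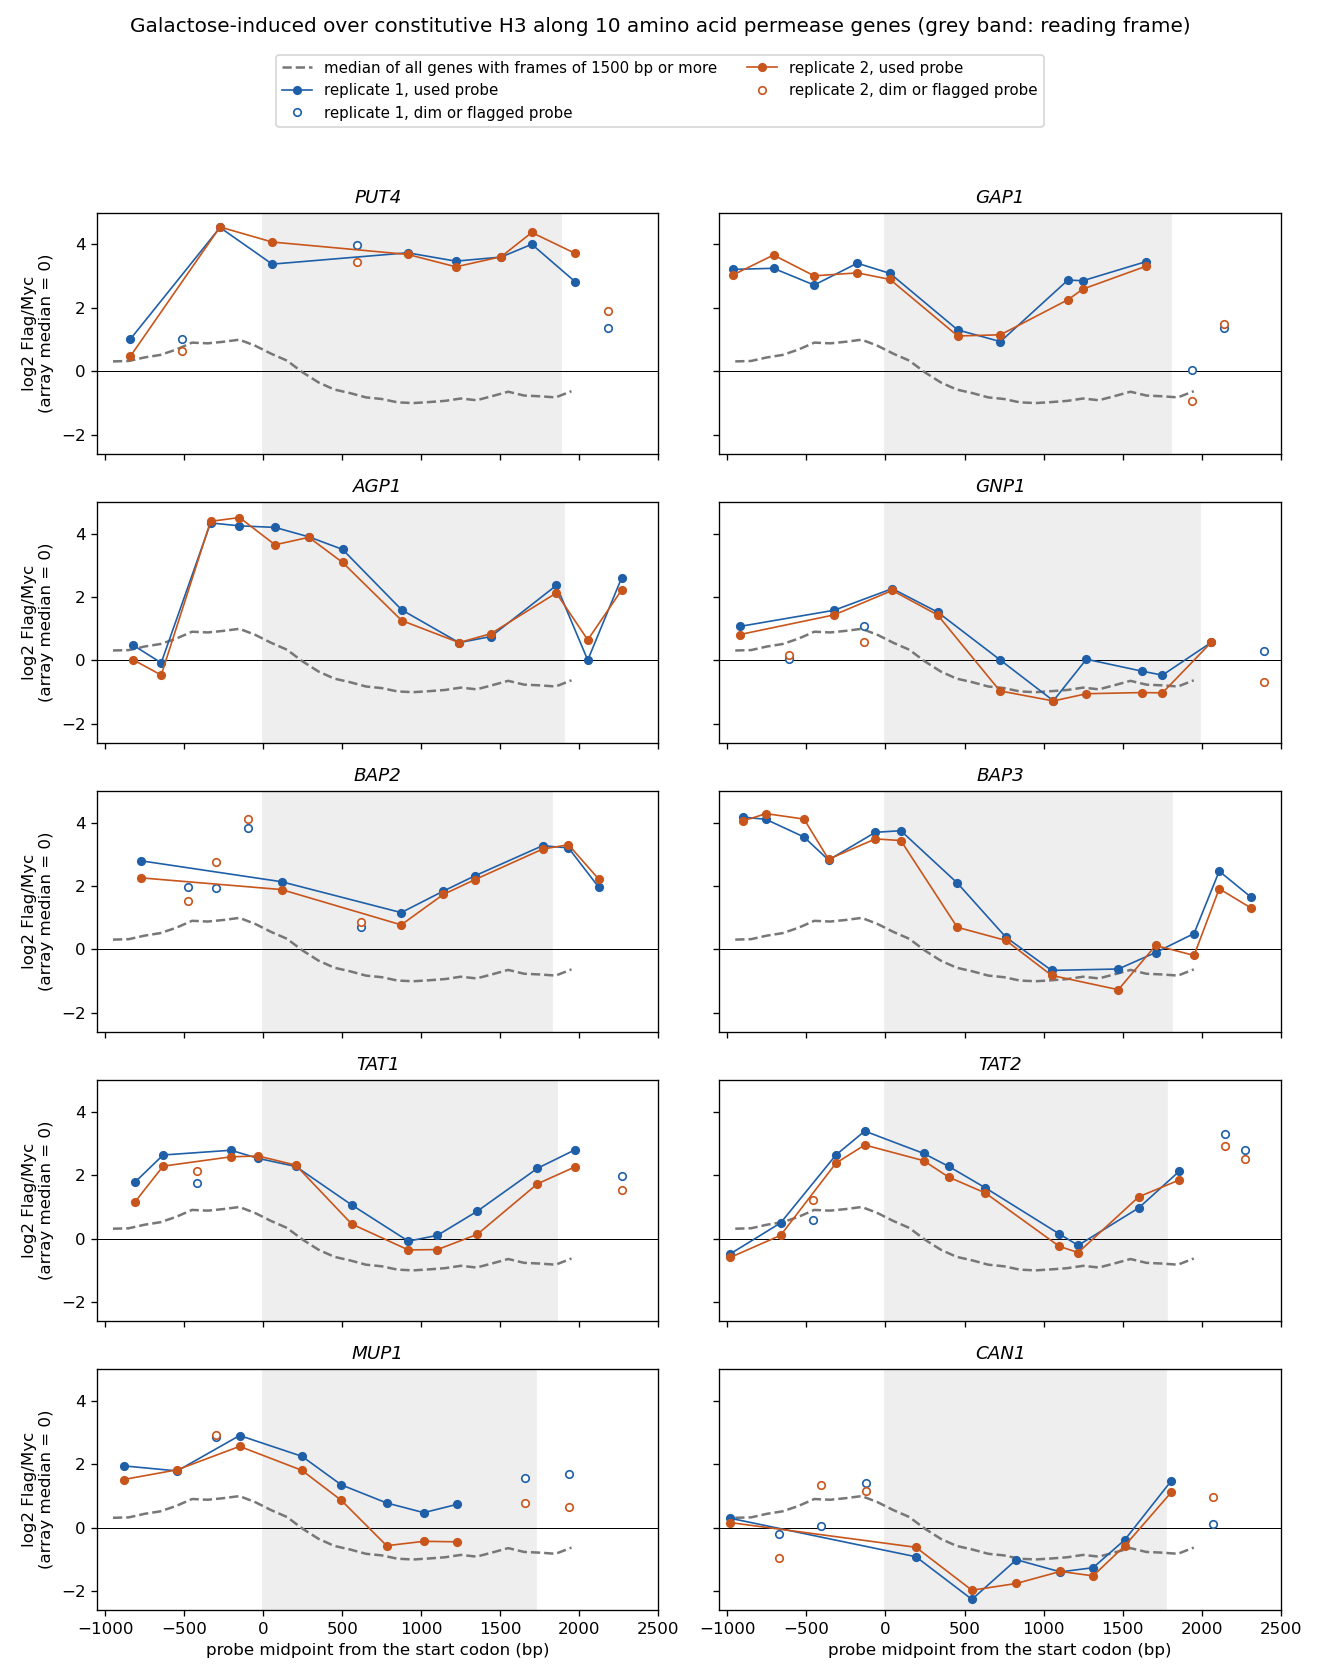
Probe values along each of the 10 permease genes, with the distance of the probe midpoint from the start codon in bp on the horizontal axis and log2 Flag over Myc (array median 0) on the vertical axis. Filled points joined by lines are used probes on replicate 1 (blue) and replicate 2 (orange), open points are dim or outlier-flagged probes that were not used, the grey band is the reading frame and the dashed line is the median of all genes with frames of 1500 bp or more. PUT4 stays above 3 across its frame, AGP1, BAP3, TAT1 and TAT2 fall from the start towards the middle, and CAN1 lies near or below the dashed line.

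The permeases for poor nitrogen sources come first. PUT4 (YOR348C), the high-affinity permease for proline, is on chromosome 15 from 986895 to 988778 on the reverse strand, in the coordinates of the files, whose genome build the sources used here do not name. Its promoter rests on 1 probe at -273, which read 4.54 on replicate 1 and 4.55 on replicate 2, or 4.54 ± 0.01 and 23.3-fold over the array median. That was the highest of the 4561 promoters. The signals behind it were bright in Flag, with 7380 and 8401 units, against 437 and 492 in Myc.

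High ratios at PUT4 were not limited to the promoter. The 5 used frame probes averaged 3.64 and 3.81 on the arrays, or 3.73 ± 0.12 and 13.2-fold over the median, which was rank 48 of 5615 frames. They varied little along the gene, from 3.38 to 4.19, and with the frame split into 3 equal parts, the last part stood at 3.90 ± 0.13 against 3.55 ± 0.08 in the middle part. A further frame probe, at 595, was dim in Myc. With its Myc signal raised to the lowest one well above background on replicate 1, it read 12.7-fold over the median. On replicate 2 its own Myc signal was higher and was kept, so that figure is not a strict lower limit. The probe 88 bp past the stop codon read 2.83 and 3.72.

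Upstream, the high ratio at PUT4 had a sharp edge. The used probe at -840 read 1.01 and 0.47, and one at -514, left out for an outlier flag, 1.01 and 0.64. The upstream peak thus rests on 1 probe, and the next one with a high ratio lies at 57 in the frame, with 3.38 and 4.08. The divergent neighbour CIN1, a tubulin folding factor whose start codon lies 1006 bp away, takes its promoter value of 0.74 ± 0.38 from that probe at -840 and stood at 0.84 ± 0.01 in its frame.

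GAP1 (YKR039W, chromosome 11, 514706 to 516514, forward strand) codes for the general amino acid permease, which takes up nearly all amino acids when nitrogen is poor. Its promoter read 3.06 on both arrays, or 3.06 ± 0.01 from 2 probes, rank 192 of 4561. The arrays differed in opposite directions at these probes, with 2.72 and 3.01 at -451 and 3.41 and 3.10 at -178. The near-equal means therefore hide a larger spread. Unlike at PUT4, the high ratio continued through the 4 upstream probes out to -962, which read 3.13 ± 0.12, with 3.46 ± 0.30 at -708, 2.87 ± 0.21 at -451 and 3.26 ± 0.22 at -178.

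The GAP1 frame read 2.42 and 2.22, or 2.32 ± 0.14 from 6 probes, rank 330 of 5615. Within the frame the values formed a trough. They stood at 2.99 ± 0.13 at position 29, at 1.21 ± 0.14 and 1.04 ± 0.15 at 457 and 727, and at 3.39 ± 0.10 at 1649. The last part, at 3.06 ± 0.14, was above the first, at 2.10 ± 0.13, by more than the spread between the arrays. Both probes past the stop codon were too dim to use.

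AGP1 (YCL025C, chromosome 3, 76132 to 78033, reverse strand) codes for a permease of broad range and low affinity, which takes up asparagine, glutamine and many others in rich media. Its promoter read 4.29 and 4.45, or 4.37 ± 0.11 from 2 probes and 20.7-fold over the median, second only to PUT4. The probes at -333 and -150 were alike, at 4.36 ± 0.03 and 4.38 ± 0.19. At -645 the ratio was -0.08 and -0.46, so the edge of the peak lay within a single probe interval, as at PUT4. The divergent neighbour KCC4, a kinase of the bud neck whose start lies 1128 bp away, had a promoter value of 0.22 ± 0.19 and a frame value of -0.73 ± 0.01.

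The AGP1 frame read 2.41 and 2.20, or 2.30 ± 0.15 from 7 probes, nearly the same mean as GAP1 but spread differently. It fell from 3.70 ± 0.23 in the first part to 0.99 ± 0.12 in the middle part and 1.52 ± 0.05 in the last. The lowest probe, at 1239, read 0.56 on both arrays. At 1854, next to the stop codon, the ratio was again 2.24 ± 0.17. The left end that the files list for AGP1 is 113 bp off the spacing of its neighbours, an alternative looked at after the values were seen. With the start codon moved by that distance, the probe at 75 would lie 38 bp upstream of it, the promoter would read 4.22 ± 0.06 from 3 probes and the frame 2.04 ± 0.11 from 6.

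GNP1 (YDR508C, chromosome 4, 1466444 to 1468435, reverse strand), a paralog of AGP1, codes for the high-affinity glutamine permease. It had the lowest promoter of the 8, at 1.58 and 1.44, or 1.51 ± 0.10 from 1 probe at -324, rank 1435 of 4561. A second promoter probe, at -133, was both dim and outlier-flagged, so it was not used, and read 1.08 and 0.58. In its frame the arrays fell on either side of the median, with 0.25 on replicate 1 and -0.24 on replicate 2. The mean was 0.00 ± 0.35 from 7 probes, and it was -0.21 with normexp background correction, -0.16 with loess and -0.09 without the filter on dim probes, so its sign is not determined.

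The flat mean of GNP1 hid a steep slope. The probe at 43 read 2.26 and 2.21, above the promoter probe on both arrays, and the one at 330 read 1.52 and 1.43. From 724 on, every frame probe had a mean below 0, and the lowest, at 1062, read -1.27 and -1.28. The first part stood at 1.86 ± 0.05 and the middle part at -0.75 ± 0.49. The divergent neighbour SMT3, the yeast SUMO gene 955 bp away, stood at 0.94 ± 0.18 in its promoter, from the probe at -923 of GNP1, and at 0.27 ± 0.11 in its frame.

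The pair of paralogs for branched-chain amino acids differed in their frames. BAP2 (YBR068C, chromosome 2, 373859 to 375688, reverse strand) takes up leucine, isoleucine and valine, and its 3 promoter probes had too little Myc signal for a ratio. At -99 the Flag signal was 731 and 949 units and the Myc signal 70.9 and 76.0, under the lowest Myc signals well above background on those arrays, 96.5 and 129. The ratio there was at least 10.3-fold over the median. At -297 the same rule gave 5.03-fold. The Myc signal of that probe on replicate 1, 228 units, was above the lowest signal, so the measured ratio was kept there and 5.03-fold is not a strict limit. The third probe, at -476, was well above background in Myc on replicate 2 only and read 1.96 and 1.53. The limit at -99, 3.36 on the log2 scale, lies above the median of the 8 measured promoters. Without the filter on dim probes its promoter read 2.59 ± 0.14.

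The BAP2 frame read 2.15 and 1.95, or 2.05 ± 0.14 from 5 probes, rank 441 of 5615. It rose towards the 3′ end. From 0.97 ± 0.27 at 873 the ratio went to 1.79 ± 0.07 at 1140, 2.26 ± 0.09 at 1338 and 3.22 ± 0.08 at 1767. The probe 101 bp past the stop codon, at 3.26 ± 0.07, was as high as that last frame probe within the spread between the arrays. The last part of BAP2 exceeded the first on both arrays, as it did at GAP1 and CAN1, 3 of 10 genes, where 37.9% of all genes showed this.

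BAP3 (YDR046C, chromosome 4, 548760 to 550574, reverse strand), which also takes up cysteine, methionine and aromatic amino acids, had the widest range within a frame of the 10 genes. Its promoter read 3.26 and 3.17, or 3.21 ± 0.06 from 2 probes, rank 140 of 4561. Its frame read 0.81 and 0.41, or 0.61 ± 0.28 from 6 probes, rank 1586 of 5615. The difference of 2.60 ± 0.22 was the largest of the 8. Along the frame the probes fell from 3.59 ± 0.22 at 97 to -0.94 ± 0.46 at 1473, a span of 4.54 log2 units, against 0.81 at PUT4.

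The arrays disagreed most at one BAP3 probe on the slope, at 454, which read 2.10 and 0.70. Upstream the ratio stayed high, with 3.59 ± 0.15 at -64, a dip to 2.83 ± 0.02 at -360, 3.83 ± 0.40 at -515, 4.20 ± 0.13 at -756 and 4.12 ± 0.09 at -899. This DNA is shared with HEM12, a haem synthesis gene that starts 1283 bp away in the other direction. The HEM12 promoter stood at 3.97 ± 0.18 and its frame at 1.18 ± 0.02. Which of these genes the shared high ratio belongs to cannot be told apart.

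The tyrosine and tryptophan permeases both fell along the frame and were higher again at its last probe. TAT1 (YBR069C, chromosome 2, 376572 to 378431, reverse strand), which carries tyrosine and also valine and leucine, read 2.66 and 2.59 in its promoter, or 2.62 ± 0.05 from 2 probes, rank 367 of 4561. Its frame read 1.07 and 0.65, or 0.86 ± 0.30 from 6 probes, rank 1283 of 5615. The frame was U-shaped, with 1.53 ± 0.20 in the first part, -0.17 ± 0.26 in the middle and 1.24 ± 0.43 in the last.

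TAT1 and BAP2 lie in tandem, with 883 bp between the TAT1 stop codon and the BAP2 start codon. The probe 111 bp past the end of TAT1, which is also at -772 of BAP2, read 2.80 and 2.26. Whether that value belongs to the end of TAT1 or to the upstream DNA of BAP2 cannot be told apart. On its other side TAT1 follows ALG14, a gene of protein glycosylation, at a gap of 787 bp, and the ALG14 frame stood at 1.43 ± 0.33.

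TAT2 (YOL020W, chromosome 15, 286173 to 287951, forward strand), the high-affinity tryptophan permease, read 3.01 and 2.67 in its promoter, or 2.84 ± 0.25 from 2 probes, rank 269 of 4561. A further probe at -461, dark in both channels on both arrays, read 0.60 and 1.21. Without the filter on dim probes, which takes in that probe and also moves the array median, the promoter was 2.10 ± 0.03. All used probes within 1000 bp upstream gave 1.36 ± 0.21. The frame read 1.24 and 1.08, or 1.16 ± 0.12 from 6 probes, rank 1014 of 5615. It sloped from 2.57 ± 0.16 at 241 down to -0.33 ± 0.16 at 1219 and stood at 1.14 ± 0.25 at 1602. Unlike at TAT1, the last part, at 0.41 ± 0.04, was below the middle part, at 0.74 ± 0.20, on both arrays. Each of these parts holds only 2 probes, so the contrast depends on where the probes fall. The probe 79 bp past the TAT2 stop codon read 2.12 and 1.85. The divergent neighbour DIS3, the nuclease of the exosome 745 bp away, stood at -1.28 ± 0.04 in its frame, and the probe at -982 of TAT2, which lies in DIS3, read -0.48 and -0.60.

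MUP1 (YGR055W, chromosome 7, 599422 to 601146, forward strand), the high-affinity methionine permease, read 2.91 and 2.57 in its promoter, or 2.74 ± 0.24 from 1 probe at -149, rank 318 of 4561. A dim probe at -296 read nearly the same, 2.87 and 2.93. Its frame was the least reproducible of the 10, with 1.12 on replicate 1 and 0.25 on replicate 2, or 0.68 ± 0.62 from 5 probes. The gap came from the middle and the end, where the probes at 781, 1016 and 1225 were above 0 on replicate 1 and below it on replicate 2. At 245 and 494 the means were 2.03 ± 0.31 and 1.11 ± 0.34. YGR054W, the translation initiation factor eIF2A, lies upstream in tandem at a gap of 795 bp, with a frame value of 0.09 ± 0.09.

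CAN1 (YEL063C, chromosome 5, 31695 to 33467, reverse strand), the arginine permease, had the lowest frame of the 10 genes on both arrays. Its frame read -1.21 and -1.30, or -1.25 ± 0.07 from 6 probes, 2.39-fold below the array median and position 181 from the lowest of 5615 frames. All 6 frame probes were below 0 on both arrays, and the lowest, at 547, read -2.26 and -1.97. Only 1 of the 6 lay above the median of its bin along long genes. Single frame probes of other members reached the range of the CAN1 probes, such as -1.27 and -1.28 at 1062 of GNP1.

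No promoter value could be had for CAN1, because both promoter probes were dark in both channels on both arrays, so neither a high nor a low promoter ratio is shown. Just past its stop codon, at 36 bp, the ratio was 1.48 and 1.12. The divergent neighbour NPR2, part of the complex that restrains TORC1, lies 940 bp away and stood at -1.17 ± 0.09 in its frame.

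The genes thus fell into several shapes. The frame of PUT4 was high throughout, that of CAN1 was low throughout, and GAP1 and BAP2 were high with a trough and a high 3′ end. AGP1, GNP1, BAP3, TAT1, TAT2 and MUP1 fell steeply after the start. The shapes overlap. GAP1 also fell early, from 2.99 at 29 to 1.21 at 457, and AGP1, TAT1 and TAT2 stood at 2.24, 1.97 and 1.14 at their last probe. The first part exceeded the middle part on both arrays in 8 of 10 genes, all but PUT4 and CAN1, where 73.3% of all genes with both parts showed this. Means were 3.70 against 0.99 at AGP1, 2.34 against 0.74 at TAT2 and 1.57 against 0.06 at MUP1. Over all genes the first part had a median of 0.17 and the middle part one of -0.50, so a lower middle is the common pattern. Frames of 9 of 10 genes, all but PUT4, read lower on replicate 2 than on replicate 1, as 42.1% of all 5615 frames did, and the part of an array difference in these values was not tested.

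**Figure D3:**
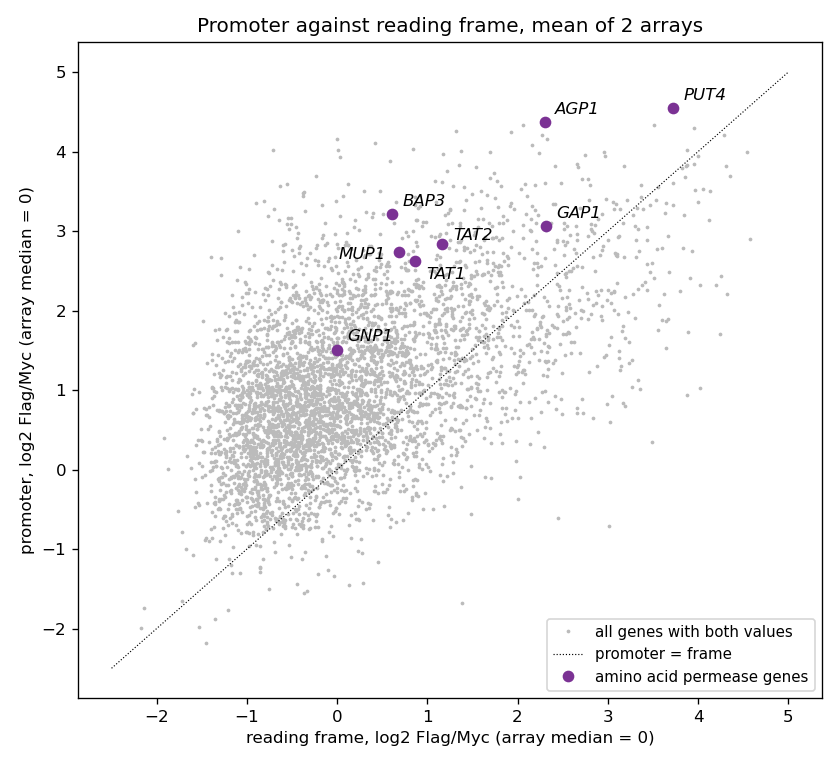
Promoter against reading frame value for all 4411 genes with both (grey points) and the 8 permease genes with both (purple), as the mean log2 Flag over Myc of 2 arrays with the array median at 0. The dotted line marks equal values. PUT4 and AGP1 are at the top of the plot, 5 others stand between 2.62 and 3.21 on the promoter axis, and GNP1 lies at 1.51 inside the main cloud.

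Genes with the most similar promoter and frame values on both arrays (Euclidean distance over these 4 values, among 4411 genes) were looked up for the highest promoters and the lowest one. For PUT4 they were HHT2, a histone H3 gene (distance 0.48), PUS2 (0.52) and ECM19 (0.78). For AGP1 they were MRH4, a mitochondrial helicase (0.45), PET494, a mitochondrial translation activator (0.47), and RPS3, a ribosomal protein (0.48). GNP1 lay in a denser region, with CYS4, of cysteine synthesis (0.23), HNM1, the choline transporter (0.30), and HIM1 (0.31) closest. Probes of HHT2 may also read tagged H3 constructs of the strain, and PUS2 and MRH4 share their promoter value of 4.33 ± 0.11.

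The median promoter of the permease genes depended on how background and window were set. It was 2.25 with normexp background correction. When every used probe within 1000 bp upstream was taken, it was 2.24 and the difference from the frame 1.04, over 10 genes in place of 8. The count of 8 of 8 high promoters was the same when either array was used alone.

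Other genes of amino acid uptake and its control were then read from lists that were likewise drawn up with earlier results of these arrays known. A gene was called higher or lower when limma's adjusted p, over all genes, was under 0.05 against the array median. By that rule 75.9% of all promoters were higher and 6.95% lower, 39.0% of all frames were higher and 42.8% lower, and in 69.5% of genes the promoter exceeded the frame while in 10.3% it was below it. These p-values rest on 2 arrays and a spread shared over all genes. Over 6 lists, 53 of 64 measured promoters were higher and 5 lower, and 26 of 77 frames were higher and 41 lower.

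**Figure D4:**
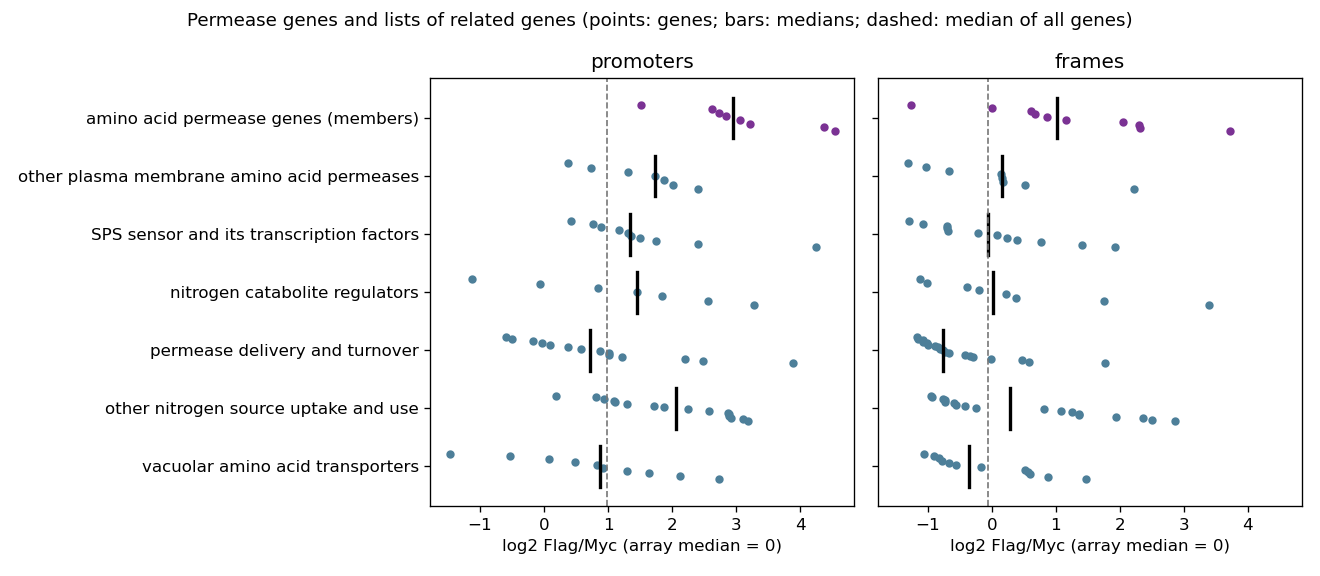
Promoter (left) and reading frame (right) values of the permease genes (purple) and of 6 lists of related genes (blue), as mean log2 Flag over Myc of 2 arrays with the array median at 0. Each point is a gene, black bars are the medians of the lists and the dashed line is the median of all genes. The median of the 8 permease promoters, 2.95, lies to the right of the list medians, which run from 0.72 to 2.06, and the frame medians of the lists run from -0.77 to 0.28.

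The 8 other plasma membrane amino acid permeases had mixed frames. Of 7 measured promoters 7 were higher, where 75.9% of all promoters were, with a median of 1.73 against 0.99 for all promoters. Of 8 frames 2 were higher and 3 lower, against 39.0% and 42.8% of all frames, with a median of 0.16. HIP1, the histidine permease, had the highest promoter at 2.40 ± 0.10, followed by SAM3, for S-adenosylmethionine, at 2.01 ± 0.15. AGP3 and MMP1 had the lowest, at 0.37 ± 0.14 and 0.74 ± 0.30, both under the median of all promoters. ALP1, an arginine transporter that is a paralog of CAN1, had the highest frame at 2.22 ± 0.16, in contrast to CAN1 at -1.25 ± 0.07. DIP5, the permease of acidic amino acids, stood at 0.53 ± 0.21, and MMP1, for S-methylmethionine, and AGP3 were the lowest frames at -1.31 ± 0.16 and -1.03 ± 0.05.

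Of the SPS sensor and its transcription factors, 10 of 10 measured promoters were higher, where 75.9% of all promoters were, with a median of 1.33. Of 12 frames 4 were higher and 5 lower, against 39.0% and 42.8% of all frames, with a median of -0.06. STP4, which codes for a zinc finger protein related to Stp1, stood out with a promoter at 4.25 ± 0.32 and a frame at 1.93 ± 0.14. The next promoter was CYC8, a corepressor subunit, at 2.40 ± 0.08, and the lowest were STP3 at 0.42 ± 0.03 and DAL81 at 0.77 ± 0.17. The protease gene SSY5 had the second highest frame at 1.41 ± 0.08. The lowest frames were GRR1, a subunit of the ubiquitin ligase that the sensor signals through, at -1.30 ± 0.02 and the sensor gene SSY1 itself at -1.08 ± 0.05.

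Among nitrogen catabolite regulators 5 of 7 promoters were higher and 1 lower, against 75.9% and 6.95% of all promoters, with a median of 1.46. Of 8 frames 3 were higher and 3 lower, against 39.0% and 42.8% of all frames. GCN4, the activator of amino acid synthesis genes, led with 3.27 ± 0.38 in its promoter and 3.40 ± 0.09 in its frame. GAT1, a GATA activator, followed at 2.56 ± 0.16 and 1.75 ± 0.30. The frames of the activators GLN3, of GAP1 and PUT4 among others, and PUT3, of the proline utilisation genes, were the lowest, at -1.01 ± 0.18 and -1.12 ± 0.19. The lowest promoters were DAL82 at -1.12 ± 0.04 and PUT3 at -0.07 ± 0.01, of which PUT3 did not pass.

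Genes for the delivery and turnover of permeases were mostly low in their frames. Of 19 frames 15 were lower and 3 higher, against 42.8% and 39.0% of all frames, with a median of -0.77. Of 14 promoters 9 were higher and 2 lower, against 75.9% and 6.95% of all promoters, with a median of 0.72. NPR2 and NPR1, a kinase that stabilises Gap1, had the lowest frames at -1.17 ± 0.09 and -1.16 ± 0.10, and RSP5, the ubiquitin ligase that marks permeases for removal, had the lowest promoter at -0.59 ± 0.29, followed by LST4 at -0.49 ± 0.10. ECM21, an arrestin that brings Rsp5 to permeases, had the highest promoter at 3.88 ± 0.45 and the second highest frame at 0.59 ± 0.12. BUL2, a partner of Rsp5, had the second highest promoter at 2.48 ± 0.17, and PAR32 the highest frame at 1.77 ± 0.26.

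Of the genes for other nitrogen sources, 15 of 16 promoters were higher and 0 lower, against 75.9% and 6.95% of all promoters, with a median of 2.06. The 18 frames split into 9 higher and 9 lower, against 39.0% and 42.8% of all frames. CAR1 and CAR2, which break down arginine, had the highest frames at 2.87 ± 0.08 and 2.51 ± 0.15, although the frame of the arginine permease CAN1 was low. OPT2 and the allantoate permease gene DAL5 had the lowest frames at -0.94 ± 0.00 and -0.94 ± 0.13. DUR1,2, for urea breakdown, had the highest promoter at 3.19 ± 0.12, with GLN1, glutamine synthetase, at 3.10 ± 0.25. The lowest were DAL5 at 0.19 ± 0.01, which did not pass, and UGA4, the GABA permease, at 0.82 ± 0.11. PUT1 and PUT2, the enzymes that use the proline brought in by Put4, were called lower in their frames at -0.72 ± 0.12 and -0.59 ± 0.07, against 3.73 ± 0.12 for PUT4, and were singled out after their values were seen. The promoter of PUT1 went the other way and was called higher, at 2.57 ± 0.06.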

How the data were processed

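Per the file headers, the deposited spot intensity values came from Agilent Feature Extraction 8.5.1.1, and the deposited log10 ratio is Myc (red) over Flag (green). The value table that the authors deposited equals the log2 of those processed signals, Myc over Flag, to within 4.9e-08, and its sign was turned for use as an alternative. Here log2 of green over red processed intensity was centred on the median of each array's used nuclear probes (-0.46 before centring on both). Probes not well above background in any channel of either array and outlier-flagged probes were left out. Limits given as "at least" set the dim Myc signal to the lowest one well above background on that array and average the log2 values of the 2 arrays. Where the probe's own Myc signal was higher, its measured ratio was kept on that array, and the figure is not a strict limit. Precision is limited by the number of arrays.

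Left ends of frames came from the distances listed in the files, and frame lengths from a RefSeq gene table of another assembly. The tests across all genes used limma 3.58.1 in R 4.3.3 (lmFit on an intercept, eBayes, Benjamini-Hochberg), which were also run on simulated data. Those data took their spread from limma's own fit, so that run cannot check its assumptions on the real arrays. Members and lists were chosen with earlier results of these data known. All members were named, with the 2 highest and 2 lowest promoters and frames of each list, the 3 nearest genes of PUT4, AGP1 and the member with the lowest promoter, and genes upstream of members. Alternatives were normexp (offset 50), loess, no filter on dim or on flagged probes, the deposited table, an upstream window of 1000 bp and each array alone. A promoter motif search was not run, since no sequence was used here.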

Additional observations from a re-analysis of the deposited data

How the results depend on the processing

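The precision is that of 2 arrays, 2 genes have no promoter value and 3 of the 8 promoters (PUT4, GNP1 and MUP1) rest on 1 probe. No paired analysis was possible because there is only 1 group. With 1 array alone limma gives no test. The median promoter of the permease genes, 2.95, was 2.25 with normexp, 2.65 without the filter on dim probes, 2.24 with the 1000 bp window and 2.86 to 3.04 with 1 array left out. The median frame, 1.02, was 0.78 with normexp, 0.74 with loess and 0.87 to 1.18 with 1 array left out. The median difference, 1.74, was 1.38 with normexp, 1.96 with loess, 1.52 without the dim filter, 1.04 with the 1000 bp window and 1.68 to 1.81 with 1 array left out. Frames below the median numbered 1 to 2 with 1 array left out, GNP1 joining CAN1 without replicate 1, and promoters above 1 and promoters above their frame stayed at 8 of 8 in both cases. With the 1000 bp window PUT4 (2.64 against 3.73) and AGP1 (2.18 against 2.30) lay below their frames, which left 8 of 10 genes higher upstream, and TAT2 stood at 1.36. The medians with that window cover 10 genes, with 1 probe each for BAP2 and CAN1, that of CAN1 in the NPR2 frame. The frame of GNP1 turned to -0.21 with normexp, -0.16 with loess, -0.093 without the dim filter and ranged from -0.24 to 0.25 with 1 array left out. Of the list genes, 3 promoters in place of 5 were lower with loess. Each setting was centred anew on the median of its own probes, so the zero moved with the setting. The GNP1 frame holds no dim probe, and its move from 0.00 to -0.093 without the dim filter is that change of zero. Other causes of these shifts were not tested. Among 82 values of single permease genes under the settings that can shift them by more than 1 SD between the arrays (not the deposited table or 1 array left out), 40 did so without turning sign, 3 turned sign and 39 moved less. Without the dim filter the promoters of BAP2 and CAN1 read 2.59 ± 0.14 and 0.89 ± 0.35. Both CAN1 probes were dark in both channels on both arrays, so its figure is not read as a promoter ratio.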

Other observations

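Transporters of the vacuole, which store amino acids inside the cell and release them, were measured as a further list. Of 10 promoters 7 were higher and 2 lower than the array median by limma's adjusted p, against 75.9% and 6.95% of all promoters. Their median was 0.87, against 0.99 for all promoters. Of 12 frames 5 were higher and 6 lower, against 39.0% and 42.8% of all frames, with a median of -0.36. RTC2, a transporter of basic amino acids, had the highest promoter at 2.74 ± 0.13 and the highest frame at 1.47 ± 0.11 (n = 2). AVT3, which exports neutral amino acids from the vacuole, followed in both, at 2.12 ± 0.15 and 0.87 ± 0.00. The lowest promoters were VBA3 at -1.47 ± 0.17 and YPQ1 at -0.53 ± 0.10, and the lowest frames AVT4 at -1.05 ± 0.06 and YPQ1 at -0.90 ± 0.25. The promoter value of AVT2, at 1.30 ± 0.26, comes from the same probe that lies 36 bp past the stop codon of CAN1, so it is not a separate measurement from the rise in ratio there.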
